A study of Mus musculus with 15 samples.

Results

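Receptors, SMAD proteins and feedback genes of the bone morphogenetic protein (BMP) pathway were followed by their mRNA in MC38 and B16-F10 mouse tumour cells with raised or lowered Ssbp4. The set holds 10 genes, 3 receptors (Bmpr1a, Acvr1, Bmpr2), 3 receptor-activated SMADs (Smad1, Smad5, Smad9), 2 inhibitory SMADs (Smad6, Smad7) and the pathway-responsive genes Bambi and Atoh8, out of 56558 gene entries in either expression table and 53088 in both. The 10 genes were chosen with results of these same comparisons already known. Their levels and fold changes are therefore given as a description. How many of them passed the fit over all genes is printed only as a count beside the share of all genes that passed, and neither a pass nor its absence is used as evidence about the set.

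BMPs are secreted ligands that bring together type I receptors such as Bmpr1a and Acvr1 with type II receptors such as Bmpr2. The activated type I receptor phosphorylates Smad1, Smad5 and Smad9, which join Smad4, enter the nucleus and act on genes such as the Id family. The inhibitory SMADs Smad6 and Smad7 and the decoy receptor Bambi are themselves switched on by the pathway and damp it. In the melanocyte lineage and in the gut, BMP signalling is known for its part in differentiation.

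Polyadenylated RNA was sequenced in 15 libraries. MC38, a colon adenocarcinoma line that the tissue label calls melanoma but whose column names say colon, gave 4 wild-type libraries (WT) and 3 libraries of cells stably carrying mouse Ssbp4 cDNA in a retroviral vector with an EGFP marker (OE); the labels name no vector-only control. B16-F10, a melanoma line, gave 4 libraries of cells nucleofected with a control guide against an intergenic region (WT) and 4 of cells nucleofected with Cas9 and a mixture of guides against Ssbp4 (KO), an edited population rather than a clone in so far as the labels describe it. Whether replicate libraries stem from separate cultures is not stated in the labels. Standard errors and p-values here thus reflect library-to-library spread that may be technical only. Values are FPKM, fragments scaled to gene length and to the number of mapped fragments, which allows levels to be compared between genes. Fold changes are on the scale of log2(FPKM + 1), OE minus WT or KO minus WT, and understate the change of genes near or under 1 FPKM.

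Ssbp4 followed the labels: 13.2 to 17.6 FPKM in MC38 WT, 462 to 581 in OE, 32.4 to 37.4 in B16-F10 WT and 19.0 to 24.3 in KO, so Ssbp4 mRNA persisted in the KO libraries. All 7 melanocyte markers were above 1 FPKM in B16-F10, with a summed level of 10982 to 14075 FPKM in WT and 13645 to 14154 in KO. In MC38 WT, Krt8 and Krt18 were the only 2 of 8 epithelial markers above 1 FPKM, with means of 3.22 and 3.23. In OE only Krt8 was, at 9.45 FPKM, with Krt18 at 0.0607. Epcam stood at 0.846 FPKM in WT and 0 in OE, and Cdx2 at 0 in both. The summed fibroblast list, mostly Dcn and Pdgfra, stood at 82.4 to 87.8 FPKM in WT and 386 to 394 in OE. The part of these differences in the results below was not tested, and in bulk RNA fewer cells of a type and less RNA per cell cannot be told apart. Along the first principal component of B16-F10, with 42.8% of the variance, WT libraries 1 and 2 scored 9.42 and 10.3 and WT libraries 3 and 4 both -17.8, with the KO libraries between, so values are given with and without each pair where it matters. Estimated depth was 32.4 to 48.5 M fragments per library.

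Before the values, the stretches around the start of Smad9, Smad6 and Atoh8 are shown, because these 3 genes were the ones that stood lower in every B16-F10 KO library than in any WT library. Each runs from 250 bases before the RefSeq start to 25 bases after it, on GRCm38.p6, an earlier build than the GRCm39 of the authors' values. Smad9 lies on the plus strand at chr3:54755332-54755606, Smad6 on the minus strand at chr9:64022035-64022309 and Atoh8 on the minus strand at chr6:72235553-72235827. Capitals mark GTCTAGAC, a palindrome made of a pair of SMAD binding elements, and GGCGCC, a GC-rich letter run that SMAD1 and SMAD5 complexes are known to bind.
Smad9 start: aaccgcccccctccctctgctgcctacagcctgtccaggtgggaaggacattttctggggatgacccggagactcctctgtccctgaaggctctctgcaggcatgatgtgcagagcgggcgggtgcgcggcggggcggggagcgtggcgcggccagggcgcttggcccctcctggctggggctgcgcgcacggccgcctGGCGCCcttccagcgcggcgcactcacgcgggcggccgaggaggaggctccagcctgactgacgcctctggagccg
Smad6 start: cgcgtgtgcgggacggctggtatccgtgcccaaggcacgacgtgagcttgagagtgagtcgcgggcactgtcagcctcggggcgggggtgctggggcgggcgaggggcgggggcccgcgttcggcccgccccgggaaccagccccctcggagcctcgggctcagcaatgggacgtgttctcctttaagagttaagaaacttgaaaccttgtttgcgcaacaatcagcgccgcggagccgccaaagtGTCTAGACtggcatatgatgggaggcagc
Atoh8 start: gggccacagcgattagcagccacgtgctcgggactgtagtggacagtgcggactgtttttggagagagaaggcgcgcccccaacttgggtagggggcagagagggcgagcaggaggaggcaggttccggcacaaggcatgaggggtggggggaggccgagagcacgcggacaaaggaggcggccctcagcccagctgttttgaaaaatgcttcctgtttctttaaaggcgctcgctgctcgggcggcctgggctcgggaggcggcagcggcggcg
Both letter runs read the same on the 2 strands and do not overlap each other. GTCTAGAC began 4 bases before the start of Smad6, and it is held by 0.213% of 32851 promoter windows of 300 bases in the RefSeq table. GGCGCC began 51 bases before the start of Smad9, and 11.9% of the windows hold it. The Atoh8 stretch held neither. Of the 8 genes of the set with a window, Bmpr2, Bmpr1a and Smad5 also held GGCGCC, whereas Acvr1 and Smad1 held neither run. A match is a description of the letters and not evidence of binding.

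In wild-type cells the set was expressed in different proportions in each line. In B16-F10 WT the order ran from Smad5 at 27.3 ± 2.23 FPKM (SD, n = 4) through Bmpr1a at 13.9, Acvr1 at 12.7, Bmpr2 at 8.34 and Smad1 at 4.74 to Smad7 at 3.22, Bambi at 2.87, Atoh8 at 2.17, Smad9 at 1.98 and Smad6 at 1.25. The library ranges of Bmpr1a and Acvr1 overlapped, as did those of each neighbouring pair from Smad7 to Smad9. In MC38 WT the order ran from Bmpr1a at 26.3 ± 1.74 FPKM (SD, n = 4) through Acvr1 at 19.2, Smad5 at 11.9, Smad7 at 9.67, Smad1 at 9.44 and Bmpr2 at 5.33 to Smad6 at 1.15, Atoh8 at 0.539, Bambi at 0.127 and Smad9 at 0.0541. There Smad7 overlapped Smad1 and Bambi overlapped Smad9, while the other neighbours did not overlap. The tables of the lines were made separately and no level was tested between them.

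The make-up of the receptor-activated SMADs also differed. Smad5 made up 80.3 ± 0.597% (SD, n = 4) of the summed FPKM of Smad1, Smad5 and Smad9 in B16-F10 WT and 55.6 ± 1.99% (SD, n = 4) in MC38 WT. Smad1 made up 13.9% and 44.2%, and Smad9 5.80% and 0.253%. MC38 thus carried Smad1 and Smad5 transcripts at similar levels and almost no Smad9.

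**Figure D1:**
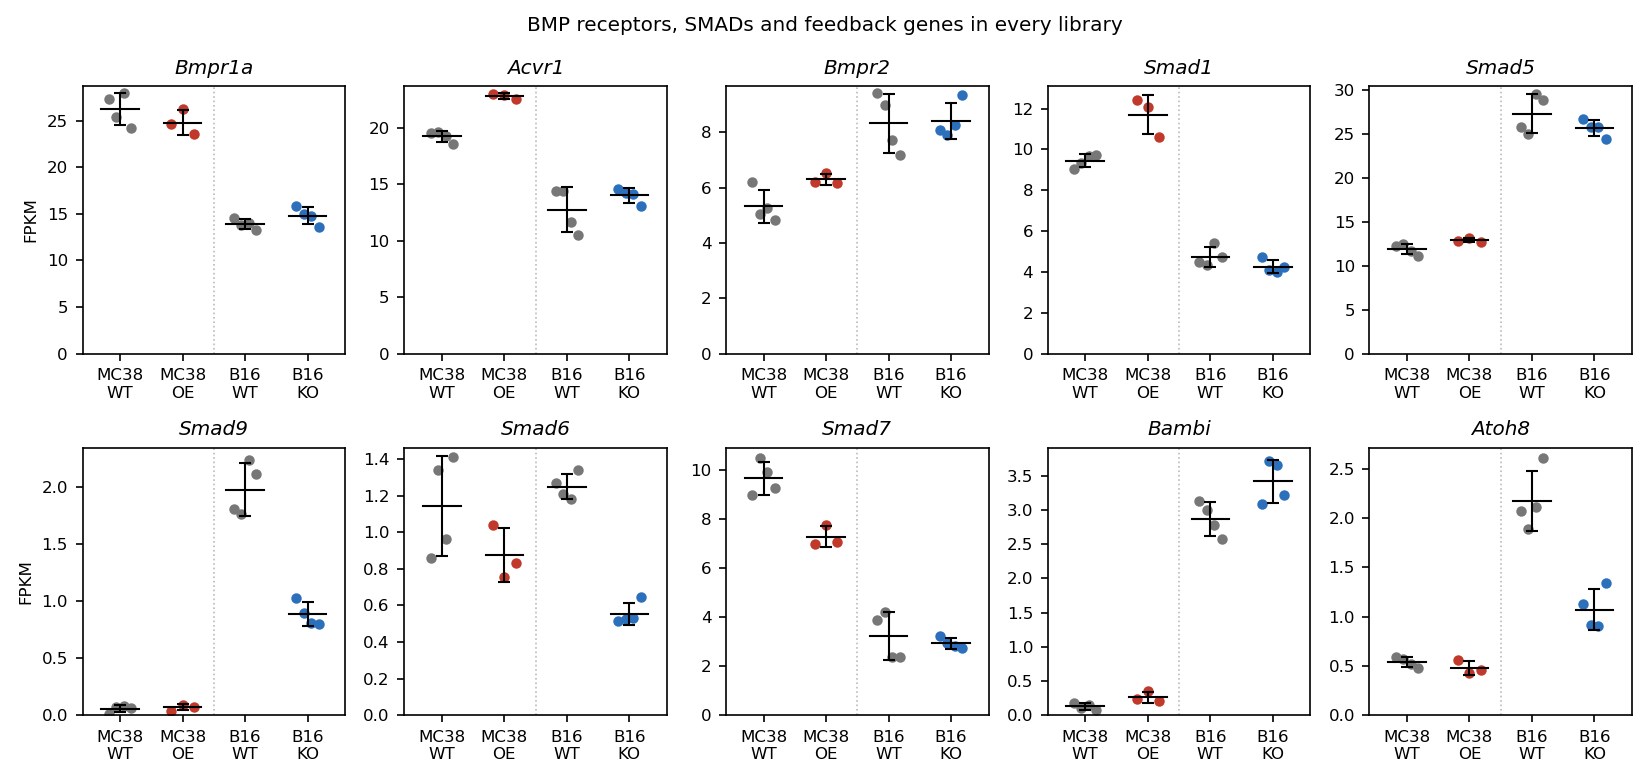
FPKM (linear axes from 0) of each of the 10 genes in every library, grouped as MC38 WT (n = 4), MC38 OE (n = 3), B16-F10 WT (n = 4) and B16-F10 KO (n = 4); points are libraries in replicate order, horizontal lines are means and bars are SD. Smad9, Smad6 and Atoh8 lie lower in every B16-F10 KO library than in any WT library, while in MC38 the OE libraries lie above WT for Acvr1, Smad1, Smad5 and Bambi and below it for Smad7.

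In B16-F10, which addresses the question of what editing of Ssbp4 does to melanoma cells, the receptor levels overlapped between KO and WT, while 1 receptor-activated SMAD (Smad9) and 2 feedback genes (Smad6 and Atoh8) were lower in every KO library. Of the 10 genes, 9 reached a mean of 1 FPKM and entered the fit over all genes (limma, Benjamini-Hochberg adjustment). There 2 passed an adjusted p of 0.05, Smad9 and Atoh8, 0 higher and 2 lower, and the library ranges of the same 2 did not overlap. Over all 10902 genes tested 2.23% passed, 1.33% higher and 0.899% lower, and in 13.9% the groups did not overlap. Because the set was chosen from these comparisons, the counts are not read against that background. The median log2 fold change was -0.08 over the 9 genes and 0.02 over all genes tested.

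Smad9, the least abundant of the SMADs that BMP receptors phosphorylate, stood at 1.80, 1.76, 2.23 and 2.11 FPKM in WT libraries 1 to 4 and at 1.03, 0.898, 0.810 and 0.800 in KO libraries 1 to 4. Every KO library was below every WT library. The KO mean was 44.7% of WT, with a log2 fold change of -0.66 (SE 0.08). The fold change was -0.56 without WT libraries 3 and 4 and -0.75 without WT libraries 1 and 2. The KO mean, 0.883 FPKM, was below the 1 FPKM filter, which the gene passed through its WT level. These values rest on an estimated 366 to 486 fragments per WT library and 167 to 242 per KO library.

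The other receptor-activated SMADs overlapped between the groups. Smad5 stood at 25.8, 25.0, 29.5 and 28.9 FPKM in WT and at 26.7, 25.7, 25.8 and 24.5 in KO, ranges that overlap, with a log2 fold change of -0.08 (SE 0.06). It was 0.01 (SE 0.05) without WT libraries 3 and 4 and -0.18 (SE 0.05) without WT libraries 1 and 2, where it passed. Smad1 stood at 4.47, 4.33, 5.42 and 4.74 FPKM in WT and at 4.71, 4.09, 4.00 and 4.22 in KO, ranges that also overlap (-0.13, SE 0.08; -0.04 and -0.21 without the same pairs). In both genes WT library 3 was the highest of the 8. As a share of the 3 receptor-activated SMADs together, Smad9 took 5.62 to 6.004% in the WT libraries and 2.65 to 3.16% in the KO libraries. The summed level of the 3 was 34.0 ± 2.90 FPKM in WT and 30.8 ± 1.24 FPKM in KO (SD, n = 4 and 4), with overlapping ranges.

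Smad6, the inhibitory SMAD that acts chiefly on BMP receptors and on Smad1, stood at 1.27, 1.21, 1.19 and 1.34 FPKM in WT and at 0.517, 0.524, 0.532 and 0.645 in KO. The groups did not overlap and the KO mean was 44.3% of WT. Its mean over the line, 0.903 FPKM, was below the 1 FPKM needed to enter the main fit, so it is not among the 9 genes counted above. Fitted with no filter, its log2 fold change was -0.53 (SE 0.05). An estimated 139 to 198 fragments lay behind each WT value and 73 to 80 behind each KO value.

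Smad7, the inhibitory SMAD that acts on both BMP and TGF-beta receptors, divided the WT libraries instead. It stood at 3.90, 4.22, 2.39 and 2.36 FPKM in WT and at 3.23, 2.93, 2.81 and 2.72 in KO. WT libraries 1 and 2 were above all KO libraries, and WT libraries 3 and 4 were below them. The log2 fold change was -0.08 (SE 0.15) over all libraries, -0.37 (SE 0.08) without WT libraries 3 and 4, where it passed, and 0.22 (SE 0.08) without WT libraries 1 and 2, where it did not, so no direction can be given. The ratio of Smad7 to Smad6 was 1.76 to 3.50 in the WT libraries and 4.22 to 6.24 in the KO libraries. This ratio contains the lower Smad6 of the KO libraries given above and gives no direction for Smad7.

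Atoh8, a basic helix-loop-helix transcription factor that BMP ligands are known to induce in several cell types, stood at 2.07, 1.89, 2.12 and 2.61 FPKM in WT and at 1.12, 0.916, 0.903 and 1.34 in KO. No KO library reached the lowest WT library, and the KO mean was 49.3% of WT. The log2 fold change was -0.62 (SE 0.10), -0.53 without WT libraries 3 and 4 and -0.70 without WT libraries 1 and 2. In 7 of 19 other settings the gene no longer passed, among them those without WT library 3 or 4 or KO library 1, 2 or 3, where the log2 fold change ranged from -0.55 to -0.63.

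Bambi, a membrane protein that resembles a type I receptor without its kinase, was not lower in KO. It stood at 3.14, 2.99, 2.79 and 2.57 FPKM in WT and at 3.09, 3.71, 3.66 and 3.22 in KO. WT library 1 lay just above KO library 1, and the other KO libraries were above all WT libraries. The log2 fold change was 0.19 (SE 0.08) and did not pass, and it was 0.12 without WT libraries 3 and 4 and 0.26 without WT libraries 1 and 2. Centred on the genes of its own chromosome, 18, whose median log2 fold change was 0.12, it was 0.07.

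Bmpr1a, a type I receptor, stood at 14.6, 13.8, 14.04 and 13.3 FPKM in WT and at 15.9, 14.96, 14.8 and 13.6 in KO. The ranges overlap, and the log2 fold change was 0.08 (SE 0.06), 0.06 without WT libraries 3 and 4 and 0.11 without WT libraries 1 and 2. It lies on chromosome 14, whose genes had a median log2 fold change of 0.16 in this comparison, and centred on them its own was -0.06, the opposite sign.

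Acvr1, a type I receptor of BMPs and activins, stood at 14.4, 14.3, 11.7 and 10.5 FPKM in WT and at 14.6, 14.2, 14.1 and 13.0 in KO. Bmpr2, the type II receptor, stood at 9.44, 9.01, 7.73 and 7.17 FPKM in WT and at 8.10, 7.89, 8.25 and 9.35 in KO. In both, WT libraries 1 and 2 were above WT libraries 3 and 4. The log2 fold change of Acvr1 was 0.14 (SE 0.10) over all libraries, -0.04 without WT libraries 3 and 4 and 0.32 without WT libraries 1 and 2, where it passed. That of Bmpr2 was 0.01 (SE 0.09), -0.12 and 0.15 in the same order.

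Across the 9 genes in the fit, 4 changed sign between the fits without either pair of WT libraries, namely Acvr1, Bmpr2, Smad5 and Smad7, and 5 did not. Smad9 and Atoh8 were among the 5.

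**Figure D2:**
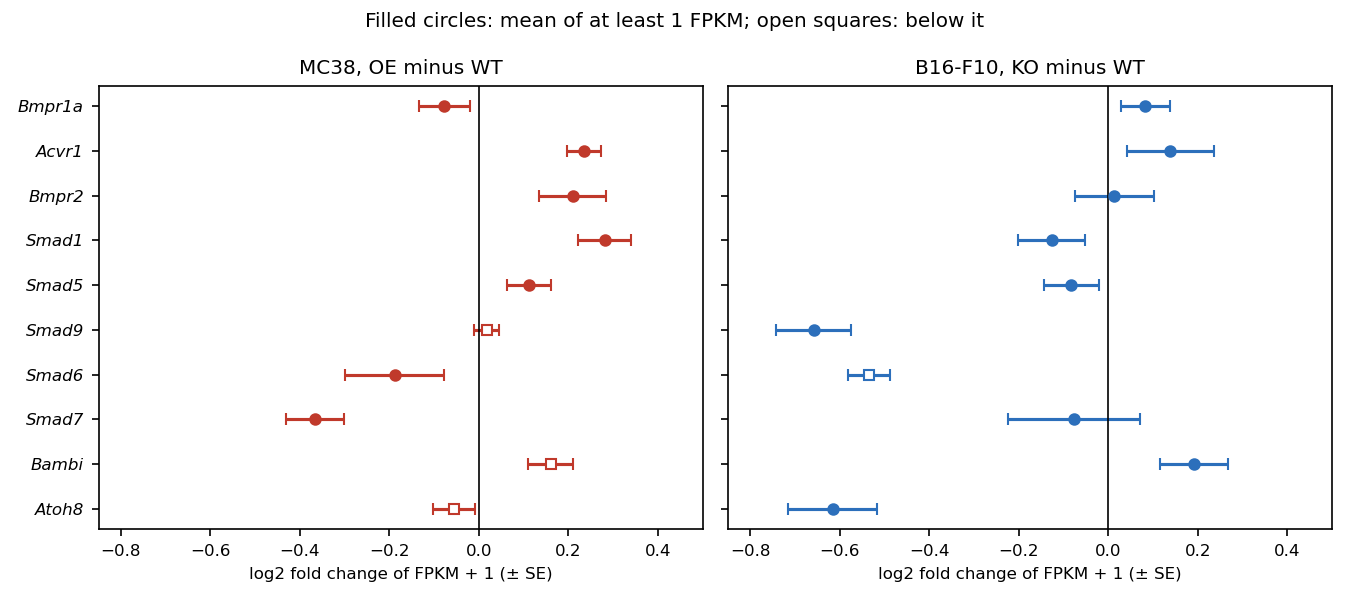
Log2 fold change of FPKM + 1 (x axis, ± SE of the fit) of each of the 10 genes, OE minus WT in MC38 on the left and KO minus WT in B16-F10 on the right; filled circles are genes with a mean of at least 1 FPKM in the line and open squares are genes below it, fitted with no filter. The lowest values are those of Smad9 (-0.66), Atoh8 (-0.62) and Smad6 (-0.53) in B16-F10 and of Smad7 (-0.37) in MC38.

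In MC38, which addresses what excess Ssbp4 does to tumour cells, the tested genes Acvr1, Smad1 and Smad5 were higher in every OE library. Smad7 was lower in every OE library. The ranges of Bmpr2, Bmpr1a and Smad6 overlapped between OE and WT. Of the 10 genes, 7 entered the fit and 4 passed, Acvr1, Bmpr2 and Smad1 higher and Smad7 lower. The groups did not overlap in 4 of the 7, namely Acvr1, Smad1, Smad5 and Smad7. Over all 10748 genes tested 47.5% passed, 23.9% higher and 23.6% lower, and in 50.6% the groups did not overlap. The counts are not read against that background, for the reason given above. The median log2 fold change was 0.11 over the 7 genes and -0.01 over all genes tested.

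Acvr1 stood at 19.5, 19.6, 19.2 and 18.6 FPKM in WT libraries 1 to 4 and at 23.0, 22.9 and 22.5 in OE libraries 1 to 3. All OE libraries were above all WT libraries by a margin larger than the spread of either group. The OE mean was 119% of WT, with a log2 fold change of 0.24 (SE 0.04). Genes of its chromosome, 2, had a median of -0.11, and centred on them the log2 fold change of Acvr1 was 0.34.

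Bmpr2 stood at 6.19, 5.04, 5.26 and 4.84 FPKM in WT and at 6.22, 6.53 and 6.15 in OE. WT library 1 lay within the OE range. The log2 fold change of 0.21 (SE 0.08) passed in 7 of 17 other settings only, and without WT library 1 it was 0.27 (SE 0.06).

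Bmpr1a, the most abundant gene of the set in MC38, stood at 27.4, 25.4, 28.0 and 24.3 FPKM in WT and at 24.6, 26.3 and 23.6 in OE. The ranges overlap, with a log2 fold change of -0.08 (SE 0.06). Of the type I receptors in MC38, Acvr1 was thus higher in every OE library and Bmpr1a overlapped; the difference between them was not tested.

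Smad1 stood at 9.04, 9.33, 9.67 and 9.71 FPKM in WT and at 12.4, 12.1 and 10.6 in OE. The groups did not overlap, the OE mean was 124% of WT, and the log2 fold change was 0.28 (SE 0.06). Smad5 stood at 12.2, 12.4, 11.7 and 11.1 FPKM in WT and at 12.8, 13.2 and 12.7 in OE. These groups did not overlap either, but the log2 fold change of 0.11 (SE 0.05) did not pass. Smad9 was listed at 0.010 to 0.0756 FPKM in WT and 0.0386 to 0.0909 in OE, overlapping ranges that rest on an estimated 2 to 14 and 8 to 17 fragments. No MC38 library of either group reached 0.1 FPKM of Smad9.

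Smad7 stood at 8.98, 10.5, 9.91 and 9.28 FPKM in WT and at 6.98, 7.77 and 7.08 in OE. Every OE library was below every WT library. The OE mean was 75.2% of WT, with a log2 fold change of -0.37 (SE 0.06) and a range of -0.41 to -0.33 over 17 other settings. Smad6 stood at 0.859, 1.34, 0.966 and 1.41 FPKM in WT and at 1.04, 0.754 and 0.833 in OE, overlapping ranges with a log2 fold change of -0.19 (SE 0.11); its OE mean of 0.875 FPKM was below the filter. The WT values of Smad6 rest on an estimated 102 to 164 fragments per library, and the cause of their wide range was not tested.

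Bambi and Atoh8 were below 1 FPKM in MC38. Bambi was listed at 0.180, 0.108, 0.149 and 0.0725 FPKM in WT and at 0.230, 0.351 and 0.201 in OE. The groups did not overlap, the OE mean was 205% of WT, and the values rest on an estimated 12 to 34 fragments per WT library and 35 to 61 per OE library. Atoh8 was listed at 0.593, 0.565, 0.517 and 0.481 FPKM in WT and at 0.562, 0.427 and 0.457 in OE, overlapping ranges.

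Set side by side, the genes whose groups did not overlap were Smad9, Smad6 and Atoh8 in B16-F10 and Acvr1, Smad1, Smad5, Smad7 and Bambi in MC38. Over all genes tested the groups did not overlap in 13.9% in B16-F10 and in 50.6% in MC38. The lists of genes are a description and are not read as a pattern of the set. The B16-F10 values of Acvr1, Smad1 and Smad7 overlapped between the groups, and those of Smad6 in MC38 did as well. No interaction between the lines was fitted, because the tables were normalised separately and the alterations of Ssbp4 differ in kind, so the difference between the lines was not tested. Among the feedback genes only Smad7 was tested in both lines. Over the 15 libraries, standardised within each line, the genes whose log2(FPKM + 1) was most like that of Smad7, out of 9739, were Rnf44, Ccnd1 and Cdk9, with Pearson correlations of 0.97, 0.96 and 0.93. The libraries of a line share a table, and the split among the B16-F10 WT libraries enters these values.

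Of the other genes of the pathway, 82 in 6 lists, 39 were tested in MC38 and 28 passed (12 higher and 16 lower, 71.8%), against 47.5% of all genes. In B16-F10 38 were tested and 4 passed (1 higher and 3 lower, 10.5%), against 2.23% of all genes. Median log2 fold changes over the tested genes of the lists were -0.04 in MC38 and 0.04 in B16-F10. The lists were drawn up with earlier results of these data known, so these shares are descriptions.

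Among 15 ligands the only one to reach a mean of 1 FPKM in either line was Bmp2, and only in MC38. Bmp2 rose from 0.763, 0.969, 1.00 and 0.741 FPKM in WT to 10.0, 7.87 and 7.91 in OE, with a log2 fold change of 2.36 (SE 0.10). The OE mean was 9.90 times the WT mean, and all OE libraries were above all WT libraries. The WT mean, 0.869 FPKM, was below the 1 FPKM filter, so Bmp2 entered the test through its OE level and its pass is not given as support. In B16-F10 Bmp2 was listed at 0 in all 8 libraries. The most abundant ligand there, Gdf7, was listed at 0.103 to 0.1502 FPKM in WT and at 0.183 to 0.432 in KO, below the level needed for the test. No listed ligand reached a mean of 1 FPKM in B16-F10 WT or KO.

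Among 9 further receptors and co-receptors, 4 were tested in MC38 and all 4 passed, against 47.5% of all genes tested. Rgmb, a membrane-anchored BMP co-receptor, rose from 7.67 to 8.23 FPKM in the WT libraries to 16.1 to 16.6 in OE (log2 fold change 0.95, SE 0.05, limma adjusted p = 1.21e-07). Tgfbr3, or betaglycan, which presents BMP and TGF-beta ligands to their receptors, rose from 11.7 to 13.0 FPKM to 25.6 to 28.4 (1.07, SE 0.05, limma adjusted p = 1.32e-07), and Rgma also rose, by a log2 fold change of 0.40. Acvr2a, a type II receptor that can take the place of Bmpr2, fell from 6.41 to 6.88 FPKM to 4.08 to 4.58 (-0.53, SE 0.06, limma adjusted p = 4.99e-05). The type I receptor Bmpr1b, picked out after its values were seen, was listed at 0 to 0.0759 FPKM in WT and at 1.01 to 1.24 in OE, and its line mean of 0.487 FPKM kept it out of the test. In B16-F10 0 of 6 passed in limma, and 1 had an unadjusted p under 0.05, against 2325 of all 10902 genes tested.

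Extracellular modulators moved in both directions in MC38, where 5 of 7 passed, against 47.5% of all genes tested. Fstl1, a secreted follistatin-like protein that binds BMPs, rose from 67.5 ± 2.00 FPKM (SD, n = 4) to 119 ± 3.99 (SD, n = 3), a log2 fold change of 0.81 (SE 0.04, limma adjusted p = 9.50e-08), and Twsg1 rose by 0.12. Grem1, a secreted antagonist that sequesters Bmp2 and Bmp4, fell from 21.5 ± 0.763 FPKM (SD, n = 4) to 14.3 ± 0.668 (SD, n = 3), a log2 fold change of -0.56 (SE 0.05, limma adjusted p = 7.58e-06). Crim1 (-0.52) and Fstl3 (-0.26) also fell, though the library ranges of Fstl3 overlapped between OE and WT. Grem1 was listed at 0 in 7 of the 8 B16-F10 libraries and at 0.0062 FPKM in the other. In B16-F10 0 of 6 modulators passed in limma, and 5 had an unadjusted p under 0.05, against 2325 of all 10902 genes tested. The 5 included Twsg1 at 14.6 and 16.3 FPKM (log2 fold change 0.15, SE 0.06) and Fstl1 at 8.03 and 9.20 FPKM (0.17, SE 0.06) in WT and KO.

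Of the intracellular regulators 10 of 16 passed in MC38, 3 higher and 7 lower in OE, against 47.5% of all genes tested. Smurf1, a ubiquitin ligase that targets Smad1 and Smad5 and is carried to receptors by Smad6 and Smad7, fell from 27.1 ± 1.37 FPKM (SD, n = 4) to 20.8 ± 1.20 (SD, n = 3), a log2 fold change of -0.37 (SE 0.05, limma adjusted p = 0.000279). Ppm1a, a phosphatase of SMADs, fell by 0.29, and Smurf2, Fkbp1a, Trim33, Usp15 and Ctdsp1 were the others that fell. The library ranges of Smurf2 and Fkbp1a overlapped between OE and WT. Tob1, which binds SMADs and represses their activity, rose from 4.31 ± 0.502 FPKM (SD, n = 4) to 6.76 ± 0.450 (SD, n = 3), a log2 fold change of 0.55 (SE 0.08, limma adjusted p = 0.000344), and Tob2 and Lemd3 rose by 0.16 and 0.18. Smad4, the partner shared by all receptor-activated SMADs, stood at 31.6 and 29.8 FPKM in MC38 and at 21.2 and 22.1 FPKM in B16-F10 and passed in neither. In B16-F10 1 of 17 passed, against 2.23% of all genes tested. It was the SMAD phosphatase Ctdsp2, which rose from 31.3 ± 1.07 to 37.3 ± 1.45 FPKM (SD, n = 4 and 4). Its log2 fold change was 0.24 (limma adjusted p = 0.0402). Ctdsp2 did not pass in 10 of 20 other settings, among them those without any 1 of the WT libraries or of KO libraries 1 to 3.

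**Figure D3:**
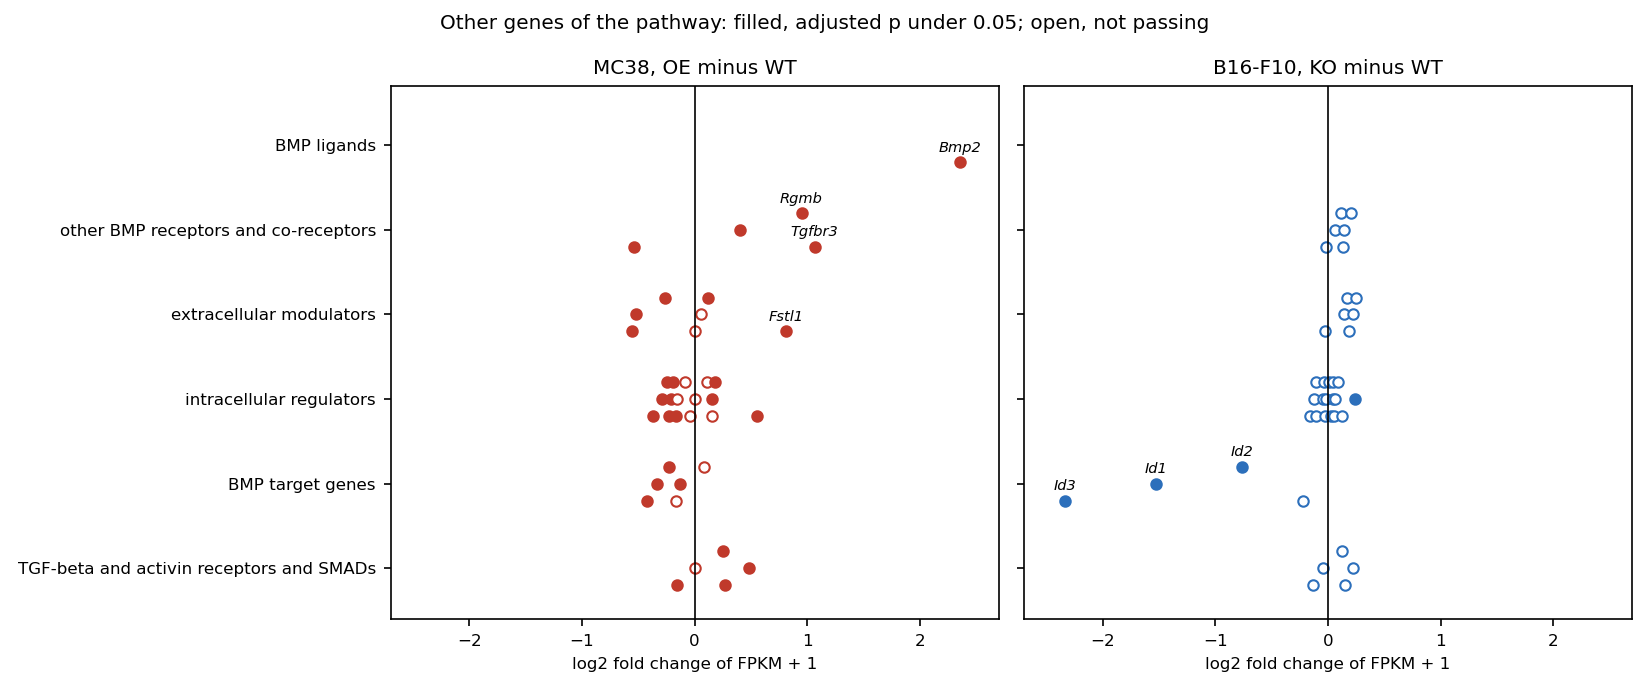
Log2 fold change of FPKM + 1 (x axis) of the tested genes of the 6 pathway lists (rows, with points staggered for legibility), OE minus WT in MC38 on the left and KO minus WT in B16-F10 on the right; filled points passed an adjusted p of 0.05 (limma) and open points did not, and the names are of passing genes beyond 0.7 in either direction. MC38 shows 28 filled points on both sides of 0, with Bmp2 at 2.36, and B16-F10 shows 4, of which Id1, Id2 and Id3 are the 3 below 0.

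The target genes of the pathway were lower in both lines where they passed. In B16-F10 3 of 4 passed, against 2.23% of all genes tested. Id3, Id1 and Id2, inhibitors of helix-loop-helix transcription factors and classical BMP targets, had log2 fold changes of -2.33, -1.52 and -0.76, which earlier results of these data had already shown and which are no independent support for the values of Smad9, Smad6 and Atoh8. Id1 did not pass in 7 of 20 other settings. Id4 was listed at 0 in all 8 B16-F10 libraries. In MC38 4 of 6 passed, all lower, against 47.5% of all genes tested, 23.6% lower. There Msx1, a homeobox gene, fell from 2.78, 3.40, 3.35 and 3.36 FPKM in WT to 2.48, 2.24 and 1.76 in OE (log2 fold change -0.42, SE 0.09, limma adjusted p = 0.00418), and Id3 fell from 21.8 ± 2.11 FPKM (SD, n = 4) to 17.1 ± 1.16 (SD, n = 3; -0.33, SE 0.07, limma adjusted p = 0.00413). Gata2 fell by 0.22, with overlapping library ranges, and Id2 by 0.13, the latter failing to pass in 7 of 17 other settings. Id1 stood at 7.08 ± 1.17 FPKM (SD, n = 4) in WT and 6.23 ± 1.30 (SD, n = 3) in OE and did not pass. In MC38 the higher levels of Bmp2, Acvr1 and Smad1 stood beside lower levels of Smad7, Id3 and Msx1 in the same libraries. Acvr2a, Grem1, Smurf1 and Ppm1a were also lower there, and Bmpr1a and Id1 overlapped between the groups. No relation between these genes was tested.

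Library by library in B16-F10, the lower genes did not fall to the same depth in each KO library. KO library 4 had the highest KO level of Id1 (40.4% of the WT mean), Id2 (60.7%), Id3 (29.9%), Smad6 (51.5%) and Atoh8 (61.7%). The other KO libraries stood at 21.1 to 24.6% for Id1, 55.4 to 59.7% for Id2, 15.1 to 16.3% for Id3, 41.3 to 42.5% for Smad6 and 41.5 to 51.7% for Atoh8. KO library 4 also had the lowest level of Smad9, 40.5% against 41.0 to 51.9%, and of Ssbp4, 55.1% against 63.8 to 70.6%. The order of the KO libraries was thus not shared by all the genes, and with 4 KO libraries no relation between them was tested.

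**Figure D4:**
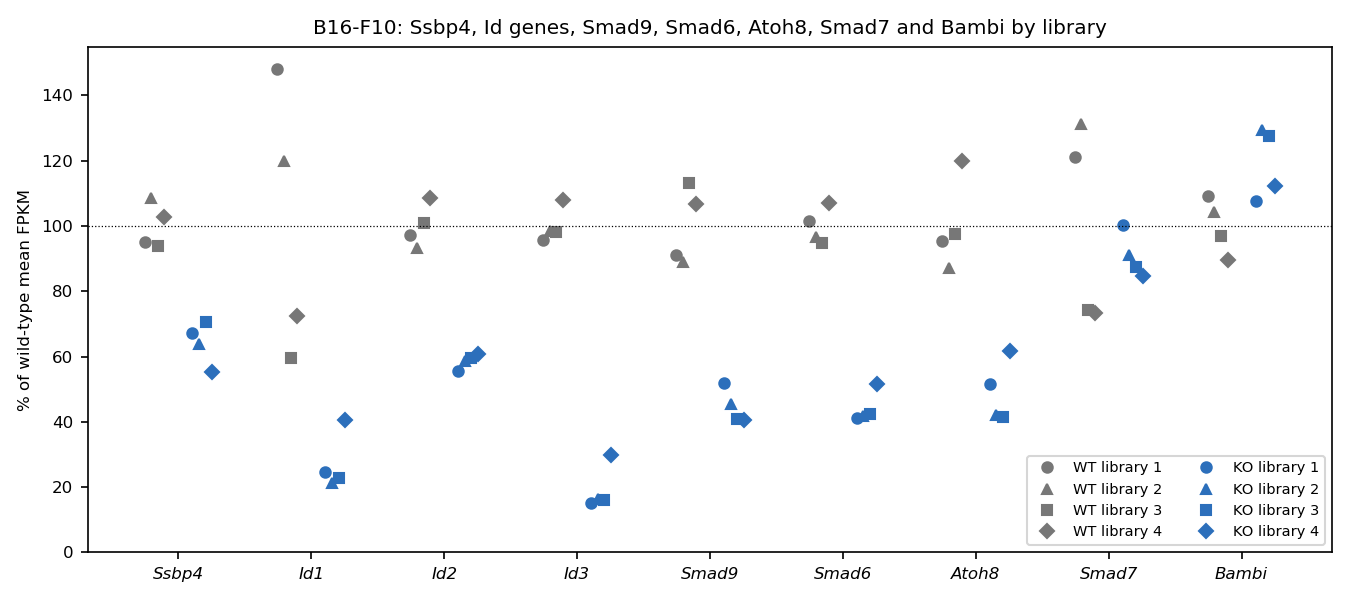
Level of Ssbp4, the Id genes and 5 genes of the set in each B16-F10 library, as a percentage of the WT mean FPKM of the gene (linear axis from 0; grey WT, blue KO, 1 symbol shape for each library number, dotted line at 100%). Ssbp4, Id1, Id2, Id3, Smad9, Smad6 and Atoh8 lie below all WT libraries in all 4 KO libraries. Smad7 splits the WT libraries into 1 and 2 above and 3 and 4 below, and KO library 4 is highest among KO for Id1, Id2, Id3, Smad6 and Atoh8.

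In the TGF-beta and activin arm, which signals through Smad2 and Smad3, 4 of 5 tested genes passed in MC38, against 47.5% of all genes. Tgfbr2, the type II TGF-beta receptor, rose from 13.5 ± 0.393 FPKM (SD, n = 4) to 19.3 ± 0.822 (SD, n = 3), a log2 fold change of 0.48 (SE 0.05, limma adjusted p = 1.59e-05). Tgfbr1 rose by 0.27 and Acvr1b by 0.25, while Smad2 fell by 0.16 and did not pass without OE library 1. Smad3 stood at 13.8 and 13.9 FPKM. In B16-F10 0 of 5 passed in limma and 2 had an unadjusted p under 0.05, against 2325 of all 10902 genes tested. The 2 were Acvr1b (log2 fold change 0.22, limma adjusted p = 0.140) and Tgfbr1 (0.13, limma adjusted p = 0.218). Smad2 stood at 15.2 and 14.7 FPKM there (adjusted p = 0.756).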

How the data were processed

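The authors deposited FPKM per gene symbol in a separate table for each line; the submitters' processing notes name GRCm39 and DESeq2, which aligner, counter or annotation was used is not given in the sources used here. Columns were assigned to samples from their labels, and 0 remained unmatched. The 10 genes, the 6 pathway lists and the marker lists were chosen with earlier results of these data known.

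Values were fitted as log2(FPKM + 1), a pseudocount of 1, with limma 3.58.1 in R 4.3.3 (mean-variance trend, two-sided), each line alone, over genes with a mean of at least 1 FPKM in the line, with Benjamini-Hochberg adjustment at 0.05 over all of them. Genes of the set below that mean were fitted with no filter. Named besides the 10 genes were Ssbp4, Id1 to Id4 and, per list and line, up to 2 highest and 2 lowest passing genes. Where none passed, up to 2 of the most abundant were named. Further passing genes are named to complete a count. Some genes were named outside this rule, among them Smad4, Smad3, Bmpr1b and, in B16-F10, Acvr1b. On data simulated for each line, 198 of 200 changed genes were recovered among 10596 for MC38, with 14 false calls. For B16-F10 200 of 200 were recovered among 10837, with 8 false calls. Recovery at the fold changes seen in the set, or with the split among the B16-F10 WT libraries, was not tested.

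Depth, 32.4 to 48.5 M fragments, was estimated from low FPKM values, of which 82.2 to 86.9% lay within 0.1 of a whole number of fragments, too few for a count test. Replicates differed by more than sampling noise in all 21 pairs (chi-square per degree of freedom 7.51 to 133). Alternatives changed the pseudocount (0.1), filter (0.1, 5 or none), scaling, variance model, library weights and replicate block, centred values per chromosome, and left out each library or a pair of wild-type B16-F10 libraries. Promoter windows came from RefSeq on GRCm38.p6; 8 of the 10 genes were matched. Figures used matplotlib 3.10.9.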

Additional observations from a re-analysis of the deposited data

Results flagged for a closer look

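Among 77 groups of 4 libraries, 5 held a library whose distance from its nearest neighbour took up most of the range of the group; chance gives about 1 in 20. In B16-F10 KO, library 4 stood apart for Smad6, at 0.645 FPKM against 0.517 to 0.532 in the others, and for Id3, at 19.8 FPKM against 9.95 to 10.8. In B16-F10 WT, library 2 stood apart for Smad2, at 14.3 FPKM against 15.3 to 15.5. In MC38 WT, library 1 stood apart for Msx1, at 2.78 FPKM against 3.35 to 3.40, and for Ssbp4, at 13.2 FPKM against 17.0 to 17.6. The 2 flags of KO library 4 are both upward, towards the WT values, and its Ssbp4 was the lowest of the KO libraries.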

How the results depend on the processing

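In MC38 the number of genes passing stayed within 1.5 times of 5107 (3906 to 5463) under all 17 alternatives, as did those of the set (3 to 4) and of the pathway lists (20 to 30). In B16-F10 243 genes passed, and the number was 140 with a filter of 0.1 FPKM, 73 with no filter, 776 with library weights, 154 centred per chromosome, 1349 without wild-type libraries 3 and 4, 2805 without wild-type libraries 1 and 2, and 23 (KO library 2) to 414 (KO library 4) with 1 library left out. Of the set 2 passed; 0 did with a filter of 5 FPKM, which removes both, 4 without wild-type libraries 1 and 2, and 1 to 2 with 1 library left out. Of the pathway lists 4 passed; 2 did with no filter, 16 without wild-type libraries 1 and 2, and 2 to 5 with 1 library left out. Fits that leave out libraries hold fewer samples and other filters other genes; for the rest the cause was not tested.

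Same-numbered libraries did not deviate together (correlations of -0.30 to 0.17 in B16-F10 and -0.29 to -0.07 in MC38). With 4 and 3 such pairs this cannot exclude that the numbers pair the samples, which the labels do not state. With a replicate block 12 genes, 0 of the set and 2 of the pathway lists passed in B16-F10, and 3906, 3 and 20 in MC38. Of passing genes in B16-F10, 59.7% were higher; the share was 73.1% scaled to a common total, 39.8% with median-of-ratios factors and 37.7% centred per chromosome. Smad6 in B16-F10 and Smad9, Bambi and Atoh8 in MC38 were below the filter, and their estimated 2 to 198 fragments per library limit what can be seen.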

Other observations

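B16-F10 cells expressed the receptor pair through which BMP9 and BMP10 signal in blood vessels, and of 5 endothelial markers only Egfl7 was above 1 FPKM. Eng, or endoglin, stood at 123, 134, 84.0 and 85.5 FPKM in WT and at 106 to 123 in KO, and Acvrl1, or ALK1, at 13.1 to 17.6 FPKM in WT and 13.9 to 19.6 in KO. Neither passed between KO and WT over all libraries (limma adjusted p = 0.697 and 0.597). In Eng the WT libraries split as they did for Smad7, Acvr1 and Bmpr2, with libraries 1 and 2 above 3 and 4. The log2 fold change of Eng was -0.18 without libraries 3 and 4 and 0.41, which passed, without libraries 1 and 2, and that of Acvrl1 was -0.06 and 0.32, neither passing, so no direction can be given. Egfl7 stood at a mean of 13.9 FPKM in WT and 16.3 in KO, while Cdh5 was at 0 in both groups. In MC38 Eng was below 1 FPKM and Acvrl1 below 0.1 FPKM in all libraries.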
